A study of Mus musculus with 6 samples.

Results

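The genes described here are the NRF2 regulators, the targets of NRF2 and the antioxidant enzymes of the glutathione, thioredoxin, NADPH and superoxide branches in MC3T3-E1 cells. They were taken from a list of 42 gene symbols, matched to the Ensembl identifiers of the FPKM files after the version was removed. Of the 42, 40 were found among the 11234 genes in the files, and *Slc7a11* (the cystine transporter) and *Mgst1* (a microsomal glutathione transferase) are not analysed here. MC3T3-E1 is a clonal preosteoblast line from mouse calvaria, labelled C57BL/6 and passage 4. The cells were held in serum-free medium to synchronize them and then given complete medium for 24 h. It held either no cyanidin-3-O-glucoside (control, 3 libraries) or 100 μmol/L of this anthocyanin pigment of plants (C3G, 3 libraries). The paper's abstract calls the controls vehicle-treated, but its culture methods name no vehicle. RNA-seq was used to ask which transcripts differ after C3G, and for this group of genes the question is whether the antioxidant system differs.

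NRF2, encoded by *Nfe2l2*, is a transcription factor that KEAP1 binds and hands over for degradation in unstressed cells. Oxidants and electrophiles modify cysteines of KEAP1, NRF2 then accumulates, pairs with a small MAF protein and binds antioxidant response elements (AREs) near its target genes. Those targets make and recycle glutathione, reduce thioredoxin, supply NADPH and conjugate reactive compounds, while superoxide dismutases, catalase, peroxidases and peroxiredoxins remove the oxidants themselves. *Nqo1* and *Hmox1* are the targets most often read as markers of the pathway.

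The core of the ARE is written TGACNNNGC. It was searched for on both strands in the RefSeq promoter windows of GRCm38.p6, which run from 250 bases before to 50 bases after a transcription start. A window was found for 33 of the 40 genes, and 9 of these 33 genes (27.3%) held a match in at least 1 window, against 14.0% of all genes with a window and 12.4% of the 32851 windows. *Hmox1*, *Gclc*, *Gsr*, *Gsta4*, *Abcc1*, *Prdx6* and *Sod3* had no window. In *Srxn1* and *Pgd* the match begins after the start, and the other 7 matches, which begin before it, are printed below. Each line is in the direction of the gene, 5′ to 3′, with the match in capitals and up to 20 flanking bases on either side.
Prdx1: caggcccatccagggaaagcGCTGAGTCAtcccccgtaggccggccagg
Me1: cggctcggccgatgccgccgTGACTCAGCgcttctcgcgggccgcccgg
G6pdx: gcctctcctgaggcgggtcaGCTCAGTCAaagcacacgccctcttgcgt
Nfe2l2: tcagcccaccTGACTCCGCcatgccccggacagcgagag
Gclm: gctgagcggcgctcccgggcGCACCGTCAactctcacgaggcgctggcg
Txnrd1: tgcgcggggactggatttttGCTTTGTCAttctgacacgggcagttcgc
Sod1: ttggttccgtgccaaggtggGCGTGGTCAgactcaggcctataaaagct

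These stretches lie at chr4:116685446-116685494 (plus strand, *Prdx1*), chr9:86695892-86695940 (minus, *Me1*), chrX:74428909-74428957 (minus, *G6pdx*), chr2:75704875-75704913 (minus, *Nfe2l2*), chr3:122245403-122245451 (plus, *Gclm*), chr10:82859094-82859142 (plus, *Txnrd1*) and chr16:90220686-90220734 (plus, *Sod1*). Counted from the transcription start, the first base of the match is at -133 in *Prdx1*, -6 in *Me1*, -57 in *G6pdx*, -240 in *Nfe2l2*, -134 in *Gclm*, -92 in *Txnrd1* and -56 in *Sod1*. *Prdx1* and *Me1* carry the same 9 bases, TGACTCAGC, on opposite strands. A match is a description of the letters and not a site of binding, and AREs outside these windows would not be seen.

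The 6 libraries are not equally alike, and this bears on every gene below. The deposited values are FPKM, a fragment level corrected for gene length and for sequencing depth, so the depth itself is unknown and no counting error can be given. On the log2(FPKM + 1) scale, Pearson's r over all genes ran from 0.886 to 0.939 between control replicate 1 and the others and 0.968 to 0.992 among the other 5 libraries. Control replicate 1 departed from control replicates 2 and 3 along with transcript GC content (Spearman's rho 0.748 over all genes, 0.673 over the 40 antioxidant genes, which share the same libraries). C3G replicate 1 departed from C3G replicates 2 and 3 with GC content in the same direction (rho 0.631 over all genes, 0.26 over the 40). All 8 markers of the osteoblast lineage were present, with a summed level of 2484 to 7600 FPKM in control and 2519 to 3457 FPKM in C3G libraries. Within the sum the matrix gene *Col1a1* ranged from 923 to 4432 FPKM, with the top value in control replicate 1. The transcription factors *Runx2* and *Sp7* had only 5.46 to 9.07 and 0.24 to 0.86 FPKM. Both lay below the chondrocyte marker *Sox9* (48.2 to 106.1 FPKM). Of the markers of other cell types, 0 of 4 endothelial, 0 of 4 adipocyte, 2 of 7 macrophage (*Cd68* and *Cd14*) and 1 of 4 epithelial genes were listed. *Cd68* and *Cd14* together had 1.73 to 2.74 FPKM in control and 2.90 to 3.65 FPKM in C3G libraries, so the sum was higher in every C3G library, and its part in the results was not tested. *Sox9*, *Col2a1* and *Col9a1*, which are 3 of the 4 chondrocyte markers, summed to 92.8 to 210.9 FPKM in control and 88.7 to 111.9 FPKM in C3G libraries. In bulk RNA a different number of cells of 1 type and a different amount of RNA per cell cannot be told apart.

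**Figure D1:**
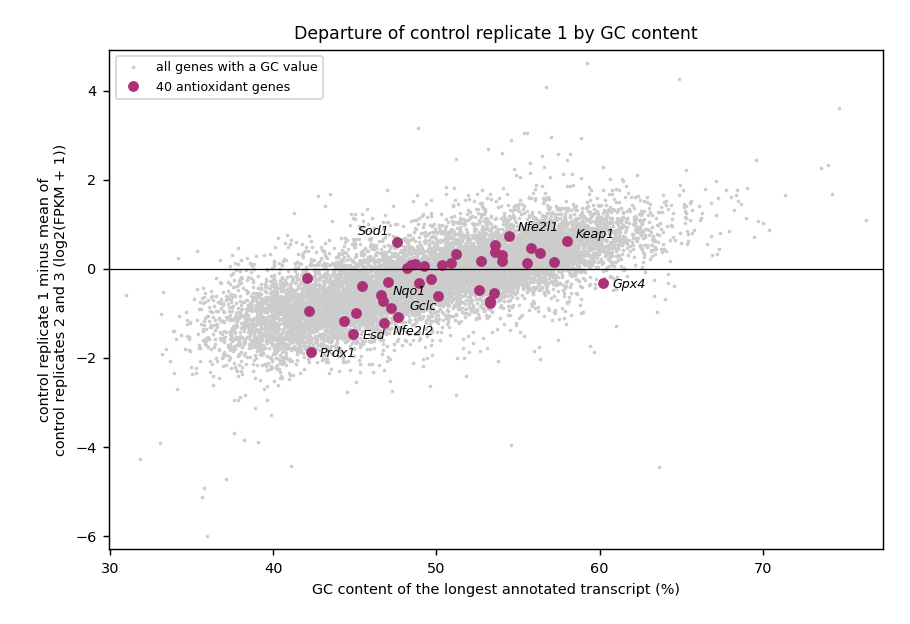
Departure of control replicate 1 from the mean of control replicates 2 and 3, in log2(FPKM + 1) units, against the GC content (%) of the longest annotated transcript. Grey points are all genes with a GC value and purple points are the 40 antioxidant genes, of which *Prdx1* lies lowest (-1.86) and *Nfe2l1* highest (0.73).

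Among the antioxidant genes this departure was large in the AT-rich transcripts. Of the 14 genes with a GC content under 48%, 13 were lower in control replicate 1 than in both other controls, with a median difference of -0.91 on the log2 scale, and the exception was *Sod1*. Of the 9 genes with 54% GC or more, 7 were higher in control replicate 1 than in both other controls (median difference 0.32). Over all 40 genes, control replicate 1 was the lowest of the 6 libraries in 19 and the highest in 8. The differences between C3G and control are therefore given with all 6 libraries and, for the main genes and gene sets, also with replicates 2 and 3 only in both groups. The part of GC content in the result of any 1 gene was not tested beyond the GC-corrected fit.

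By mean level, the cytosolic enzymes *Sod1* (copper-zinc superoxide dismutase) and *Txn1* (thioredoxin) were the most abundant transcripts of the group, at a mean of 276 and 252 FPKM over the 6 libraries. *Gstp1* (a glutathione transferase) and *Gpx4* (the peroxidase that reduces lipid hydroperoxides) came next, at 145 and 106 FPKM. The ranges over libraries overlapped between each neighbouring pair of these 4 genes. In replicates 2 and 3 of both groups *Txn1* lay above *Sod1*, and in control replicate 1 *Gstp1* (172.6 FPKM) lay above *Txn1* (155.1 FPKM). At the other end were *Gclm* (5.15 FPKM), *Gss* (4.19 FPKM) and *Glrx* (1.55 FPKM), the last encoding the cytosolic glutaredoxin. None of the 40 genes was listed at 0 in any library. The levels of *Gstp1* and *Gpx4* are uncertain, because 57.7% and 55.3% of the stretches of 75 bases in their transcripts are also found in other genes or pseudogenes, between which reads could have been divided.

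**Figure D2:**
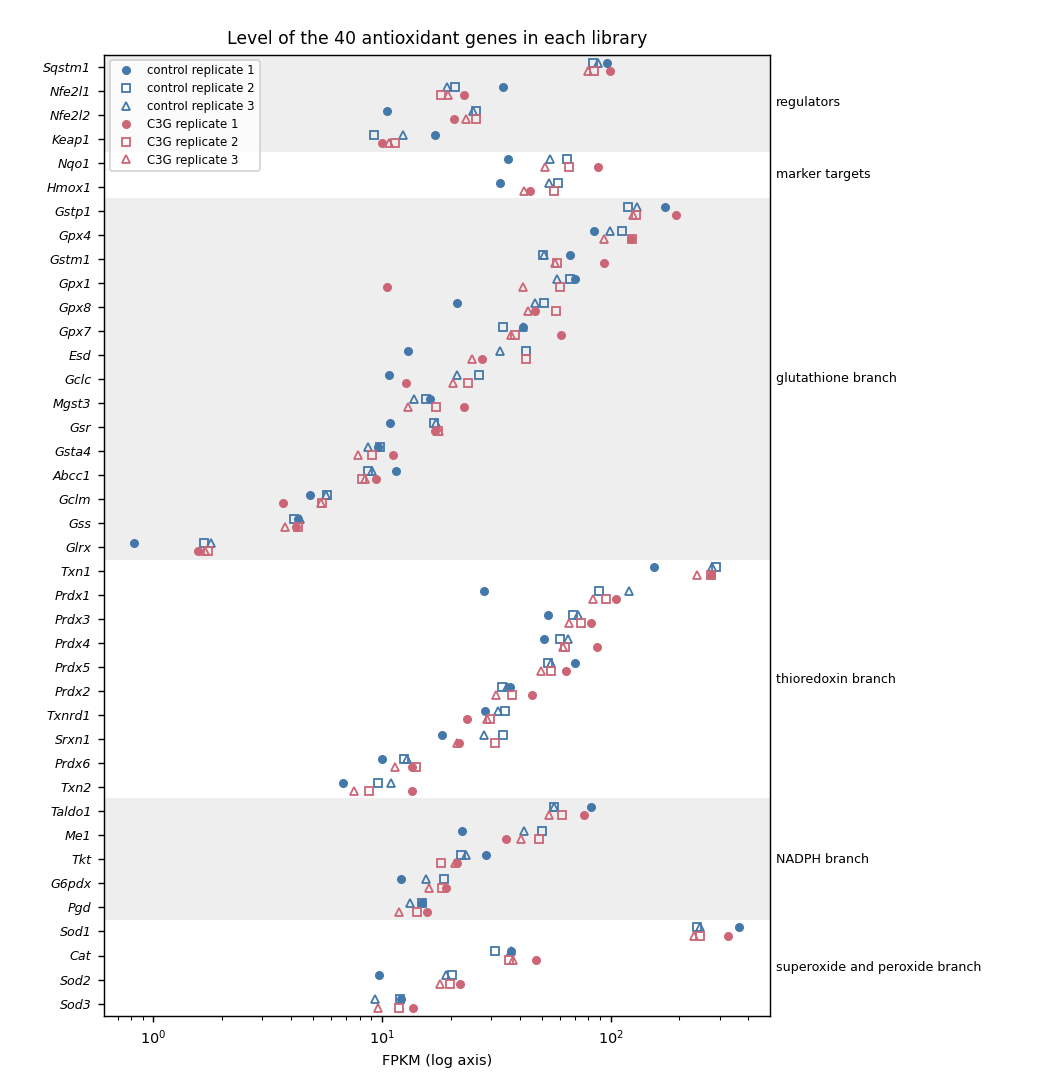
FPKM (log axis) of each of the 40 antioxidant genes in each library, grouped by branch and ordered by mean level. Blue symbols are control and red symbols C3G libraries, with filled circles for replicate 1, squares for replicate 2 and triangles for replicate 3, and the filled blue circles lie apart in many AT-rich genes such as *Prdx1* (27.9 FPKM against 89.2 and 120.4 FPKM).

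None of the 40 antioxidant genes was called between C3G-treated and untreated cells. Calls were made with limma where the unadjusted p was under 0.05 and the level differed 1.2-fold or more, which 73 of all 11234 genes (0.65%) passed. At an unadjusted p under 0.05 alone, limma found 0 of the 40 and 0.659% of all genes, the smallest p was 0.105 (*Gpx1*), and the smallest Benjamini-Hochberg adjusted p was 0.992. An ordinary linear model without moderation also gave 0 of 40 at an unadjusted p under 0.05, and 0.908% of all genes. The log2 fold change was above 0 in 24 genes and below 0 in 16, with a median of 0.10 (range -1.08 to 0.48), against a median of 0.06 over all genes, of which 62% lay above 0. *Tkt* was the only 1 of the 40 whose groups were fully separated (lower with C3G), as 4.02% of all genes were (2.55% higher and 1.48% lower).

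With the replicate number as a block, limma called 169 of all genes (1.5%) and again 0 of the 40. Same-numbered libraries departed together over all genes, whereas over the 40 genes the correlation was 0.238, 0.511 and -0.024 for numbers 1, 2 and 3. In the unblocked fit of all libraries, the 95% confidence interval of the difference lay inside a fold of 1.5 in either direction for 10 genes. It lay inside a fold of 2 for 33 of the 40. The 7 genes with wider intervals were *Gpx1*, *Nqo1*, *Nfe2l2*, *Gpx8*, *Esd*, *Prdx1* and *Sod2*. With replicates 2 and 3 only, 31 of the 40 log2 fold changes were closer to 0, and *Hmox1*, *Txn2* and *Srxn1* were among the 9 that were not. The values then ran from -0.31 (*Gpx1*) to 0.18 (*Gstm1*) with a median of -0.04, 13 were above 0 and 27 below (5059 and 6174 of all genes), and the interval lay inside a fold of 1.5 for 34 of the 40. In that comparison 2 of the 40 genes had an unadjusted limma p under 0.05, *Txn2* and *Gstm1*, against 2.01% of all genes, and *Txn2* also passed the fold change, where 1.7% of all genes were called. C3G exceeded control in 3 of 3 same-numbered pairs for *Gsr*, *Gstm1* and *Cat*, and was below it in 3 of 3 pairs for *Gpx1*, *Tkt*, *Txnrd1*, *Gclm* and *Abcc1*. Over all genes, 14.2% were higher and 11.6% lower in 3 of 3 pairs.

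**Figure D3:**
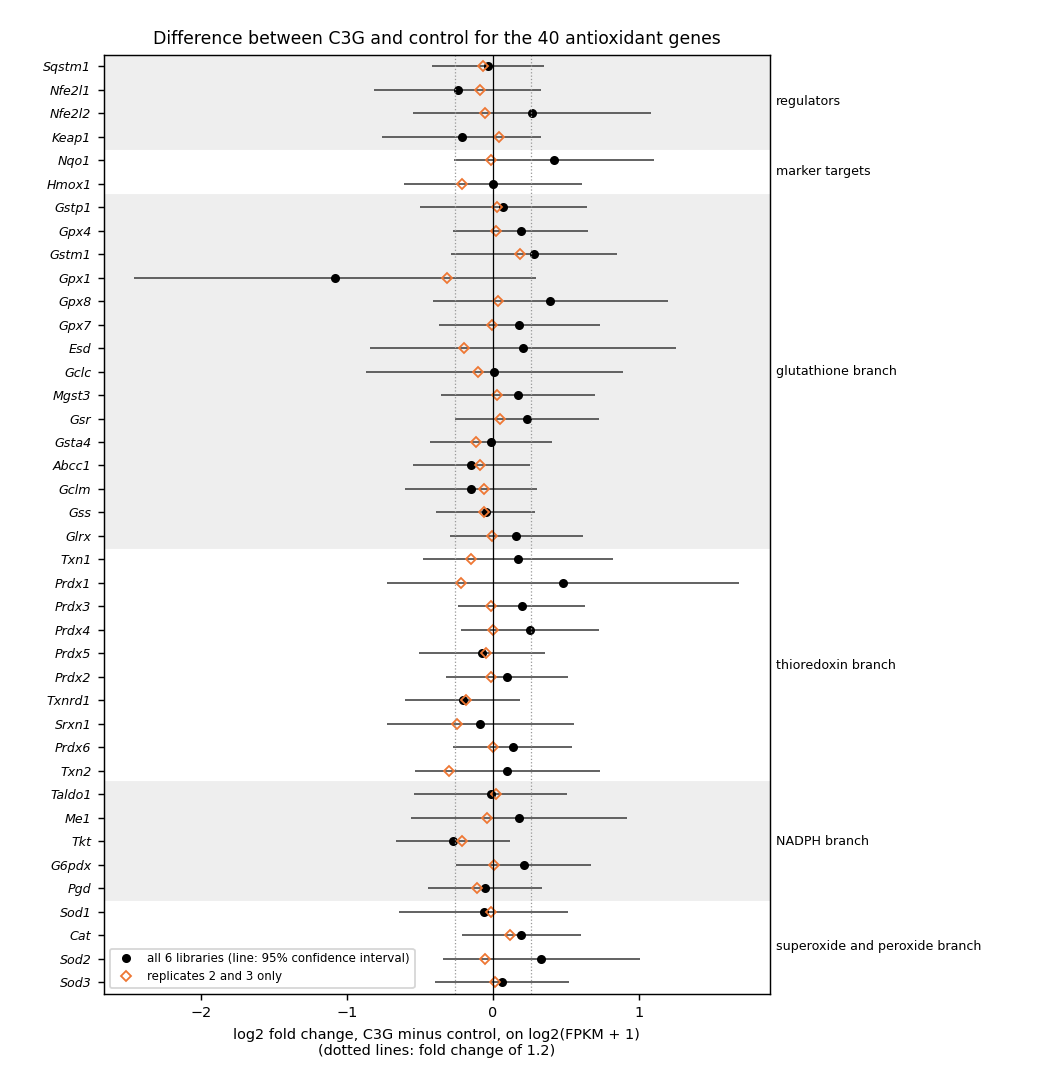
Log2 fold change (C3G minus control, on the log2(FPKM + 1) scale) of the 40 antioxidant genes. Black points and lines are the limma estimates and 95% confidence intervals with all 6 libraries, all of which include 0, and orange diamonds are the estimates with replicates 2 and 3 only, which lie between -0.31 and 0.18.

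In replicates 1, 2 and 3, *Nfe2l2* had 10.5, 25.9 and 25.1 FPKM without C3G and 20.7, 25.9 and 23.3 FPKM with it, and values are listed in this order throughout. One control library was low, and the other 5 libraries overlapped between the groups. The log2 fold change was 0.27 (95% confidence interval -0.55 to 1.08, limma p = 0.457, exact permutation p = 0.9), and it was -0.054 with replicates 2 and 3 only. *Keap1*, the gene of its inhibitor, had 17.03, 9.24 and 12.4 FPKM in the control and 9.99, 11.4 and 10.7 FPKM in the C3G libraries. Its treated libraries lay inside the range of the controls (log2 fold change -0.21, exact permutation p = 0.5, limma p = 0.387), and with replicates 2 and 3 only the value was 0.039. The exons of *Keap1* overlap those of *Gm16754* on the opposite strand. *Nfe2l1*, a related factor of the same family, and *Sqstm1*, whose protein p62 binds KEAP1 and is itself a target of NRF2, had log2 fold changes of -0.24 and -0.03, and that of *Nfe2l1* was 0.0020 without control replicate 1. *Sqstm1* varied little, between 79.3 and 99.4 FPKM in the 6 libraries.

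Of the 2 markers, *Nqo1* (a quinone reductase, chromosome 8 of GRCm38, 107388225 to 107403206, minus strand) had 35.5, 64.3 and 54.1 FPKM in untreated cells. In treated cells it had 88.5, 66.0 and 51.7 FPKM. Control replicate 1 was the lowest and C3G replicate 1 the highest library, while pairs 2 and 3 had ratios of 1.03 and 0.955. The group means were 68.7 ± 18.6 FPKM with C3G and 51.3 ± 14.6 FPKM without it (SD, n = 3 each), a log2 fold change of 0.42 (95% confidence interval -0.26 to 1.11, limma p = 0.188, exact permutation p = 0.4). Without the first pair it was -0.013, with an interval of -0.39 to 0.37.

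*Hmox1* (heme oxygenase 1, chromosome 8, 75093621 to 75100589, plus strand) had 32.9, 59.1 and 53.6 FPKM in the control and 44.3, 56.4 and 41.8 FPKM in the C3G libraries. The C3G libraries lay inside the range of the controls, and the means were 48.5 ± 13.8 FPKM in control and 47.5 ± 7.82 FPKM in C3G-treated cells (SD, n = 3 each). The log2 fold change was -0.00072 (95% confidence interval -0.61 to 0.61, limma p = 0.998, exact permutation p = 1), and its sign turned with 4 of the 6 libraries left out. With replicates 2 and 3 only it was -0.21 (interval -0.61 to 0.18).

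In the glutathione branch, 15 genes were present, of which 0 was called, 10 had a log2 fold change above 0 and 5 below, with a median of 0.16. With replicates 2 and 3 only, 6 were above 0 and 9 below, with a median of -0.0048. Glutathione synthesis starts with glutamate-cysteine ligase, made of the catalytic subunit *Gclc* and the modifier subunit *Gclm*. *Gclc* had 10.7, 26.6 and 21.3 FPKM in the control and 12.8, 23.9 and 20.6 FPKM in the C3G libraries. Replicate 1 was low in both groups, so the pairs were close to each other and the log2 fold change was 0.01 (95% confidence interval -0.87 to 0.89, exact permutation p = 1, limma p = 0.976). Its sign turned with median centring, with quantile normalization and with the GC correction. *Gclm* was lower with C3G in 3 of 3 pairs, from 4.83, 5.78 and 5.69 FPKM in control to 3.68, 5.46 and 5.43 FPKM in C3G libraries. This amounted to -0.15 on the log2 scale (exact permutation p = 0.5, limma p = 0.462) and to -0.063 with replicates 2 and 3 only, and the groups overlapped. The exons of *Gclm* overlap those of *Gm6061* on the same strand and of *Gm17494* on the opposite strand. Glutathione synthetase (*Gss*), the next step, had 4.13 to 4.39 FPKM in control and 3.78 to 4.31 FPKM in C3G libraries, and glutathione reductase (*Gsr*), which recycles the oxidized form, had a log2 fold change of 0.24 that was 0.05 with replicates 2 and 3 only.

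*Gpx1*, which encodes the main cytosolic glutathione peroxidase, a selenoprotein, was the gene with the widest difference of the group. It lies on chromosome 9 of GRCm38 (108338903 to 108340343, plus strand). It stood at 69.9, 66.7 and 58.1 FPKM in untreated and at 10.5, 60.3 and 41.4 FPKM in treated cells. C3G replicate 1 stood far below the other 5 libraries, at 0.151 times its paired control, while pairs 2 and 3 had ratios of 0.903 and 0.711. The means were 37.4 ± 25.1 FPKM with C3G and 64.9 ± 6.09 FPKM without it (SD, n = 3 each), and the log2 fold change was -1.08 (95% confidence interval -2.46 to 0.30, limma p = 0.105, exact permutation p = 0.2). Without C3G replicate 1 it was -0.37 and not called, and without C3G replicate 2 it was -1.57 and called, as were 0.356% of all genes. With the replicate block it was not called. In the first pair the next lowest ratio among the 40 genes was 0.586 (*Keap1*), and the other 3 glutathione peroxidases were at or above 46.9 FPKM in C3G replicate 1.

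*Gpx4*, also a selenoprotein, had 84.9, 112.5 and 99.6 FPKM in the control and 123.1, 123.6 and 93.2 FPKM in the C3G libraries. The groups overlapped (log2 fold change 0.19, 95% confidence interval -0.27 to 0.65, limma p = 0.361, exact permutation p = 0.3), and the value was 0.086 without control replicate 1 and 0.021 with replicates 2 and 3 only. *Gpx7* and *Gpx8*, peroxidases of the endoplasmic reticulum that use cysteine in place of selenocysteine, had log2 fold changes of 0.18 and 0.39, which were -0.0024 and 0.04 with replicates 2 and 3 only. Among the transferases that join glutathione to reactive compounds, *Gstp1* had 172.6, 119.2 and 131.0 FPKM in the control and 192.6, 129.7 and 125.2 FPKM in the C3G libraries. Replicate 1 was the highest library of each group, and the log2 fold change was 0.07 (exact permutation p = 0.7, limma p = 0.777) and 0.028 with replicates 2 and 3 only. *Gstm1* was higher with C3G in 3 of 3 pairs, with a log2 fold change of 0.28 (exact permutation p = 0.4, limma p = 0.274), which was 0.059 without C3G replicate 1 and 0.18 with replicates 2 and 3 only. Other *Gstm* genes or pseudogenes share 14.8% of its stretches of 75 bases. The remaining members, *Gsta4*, *Mgst3*, *Glrx*, the exporter of glutathione conjugates *Abcc1* and the S-formylglutathione hydrolase *Esd*, had log2 fold changes between -0.15 and 0.21. The highest, *Esd*, was -0.28 without control replicate 1 and -0.20 with replicates 2 and 3 only. The lowest, *Abcc1*, was -0.085 with replicates 2 and 3 only.

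In the thioredoxin branch, 10 genes were present, of which 0 was called, 7 had a log2 fold change above 0 and 3 below, with a median of 0.12 that was -0.10 with replicates 2 and 3 only. *Txn1* had 155.1, 289.7 and 278.5 FPKM in the control and 275.2, 274.4 and 238.7 FPKM in the C3G libraries. Apart from control replicate 1 the libraries lay close together (log2 fold change 0.17, exact permutation p = 1, limma p = 0.544). *Txnrd1*, the cytosolic thioredoxin reductase, a selenoprotein and a target of NRF2, had 28.3, 34.6 and 32.1 FPKM in the control and 23.4, 29.7 and 28.9 FPKM in the C3G libraries. It was lower with C3G in 3 of 3 pairs, with ratios of 0.829, 0.857 and 0.899, but the groups overlapped. Its log2 fold change was -0.21 (95% confidence interval -0.61 to 0.19, limma p = 0.253, exact permutation p = 0.3), and was -0.18 with replicates 2 and 3 only. It stayed within -0.28 to -0.11 when single libraries were dropped. *Srxn1* (sulfiredoxin, which repairs overoxidized peroxiredoxins) had 18.3, 33.8 and 27.9 FPKM in the control and 21.7, 31.3 and 21.2 FPKM in the C3G libraries, with a log2 fold change of -0.09 (exact permutation p = 0.9, limma p = 0.759) that was -0.24 with replicates 2 and 3 only.

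The mitochondrial thioredoxin *Txn2* had 6.79, 9.60 and 11.0 FPKM in the control and 13.6, 8.76 and 7.56 FPKM in the C3G libraries. Its first pair went up and the other two down, so the value was 0.10 with all libraries and -0.30 with replicates 2 and 3 only. *Prdx1*, the peroxiredoxin with the highest mean although not in control replicate 1, had 27.9, 89.2 and 120.4 FPKM in the control and 105.2, 95.1 and 83.4 FPKM in the C3G libraries. The log2 fold change of 0.48 (95% confidence interval -0.73 to 1.69, limma p = 0.375, exact permutation p = 0.8) rested on control replicate 1, without which it was -0.14. *Prdx4*, the peroxiredoxin of the secretory pathway, had 50.9, 59.9 and 65.4 FPKM in the control and 87.5, 63.3 and 61.9 FPKM in the C3G libraries. The difference was 0.26 on the log2 scale (exact permutation p = 0.3, limma p = 0.239) and was 0.00025 with replicates 2 and 3 only. Together the 6 peroxiredoxins summed to 248, 317 and 360.5 FPKM in the control and 397, 338 and 304 FPKM in the C3G libraries, so the totals of the groups overlapped.

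In the NADPH branch, 5 genes were present, of which 0 was called, 2 had a log2 fold change above 0 and 3 below, with a median of -0.02 that was -0.041 with replicates 2 and 3 only. *Tkt* (transketolase, of the non-oxidative pentose phosphate pathway) was the gene whose groups did not overlap. It had 28.5, 22.1 and 23.3 FPKM in the control and 21.3, 18.2 and 20.8 FPKM in the C3G libraries, and it was lower in 3 of 3 pairs. The means were 20.1 ± 1.66 FPKM with C3G and 24.7 ± 3.41 FPKM without it (SD, n = 3 each), a log2 fold change of -0.28 (95% confidence interval -0.67 to 0.12, limma p = 0.139, exact permutation p = 0.1, the smallest this test can give). It was -0.17 without control replicate 1 and -0.21 with replicates 2 and 3 only. It passed the thresholds with the GC correction, where 1.2% of all genes were called, and with the GC correction and the replicate block together, where 2.19% were, and did not pass in the other 13 alternatives. The GC content of its transcript is 54.02%, and control replicate 1 was 0.32 above the other controls on the log2 scale. It lies on chromosome 14 (30548359 to 30574720, plus strand), and the microRNA gene *Mir3076* overlaps it.

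*G6pdx*, glucose-6-phosphate dehydrogenase, opens the oxidative pentose phosphate pathway and is its NADPH-making entry step. It had 12.1, 18.6 and 15.6 FPKM in the control and 19.0, 18.4 and 16.1 FPKM in the C3G libraries. Only control replicate 1 lay apart, and the difference of 0.21 on the log2 scale (exact permutation p = 0.3, limma p = 0.315) was 0.011 with replicates 2 and 3 only. *Pgd*, the next NADPH-making enzyme of that pathway, *Taldo1* (transaldolase) and the cytosolic malic enzyme *Me1* had log2 fold changes of -0.05, -0.02 and 0.18. Of these, *Me1* was lowest in control replicate 1, at 22.5 FPKM against 34.97 to 50.3 FPKM in the other 5 libraries. Other genes or pseudogenes share 18.9% of the stretches of 75 bases of *Me1*.

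In the superoxide and peroxide branch, 4 genes were present, of which 0 was called and 3 had a log2 fold change above 0 (median 0.13). With replicates 2 and 3 only, 2 were above 0 and 2 below, with a median of -0.0013. *Sod1* had 365, 238 and 245 FPKM in the control and 326, 246 and 232.5 FPKM in the C3G libraries. Replicate 1 was the highest library in both groups, and the log2 fold change was -0.06 (95% confidence interval -0.64 to 0.52, limma p = 0.802, exact permutation p = 0.7), or -0.014 with replicates 2 and 3 only. *Sod2*, the manganese enzyme of mitochondria, had 9.71, 20.3 and 19.1 FPKM in the control and 22.0, 19.8 and 18.0 FPKM in the C3G libraries. Control replicate 1 alone was low (log2 fold change 0.33, exact permutation p = 0.5, limma p = 0.284), and with replicates 2 and 3 only the value was -0.055. *Cat* (catalase of peroxisomes) had 36.8, 31.3 and 36.6 FPKM in the control and 47.2, 36.0 and 37.4 FPKM in the C3G libraries. It was higher with C3G in 3 of 3 pairs, with ratios of 1.28, 1.15 and 1.02, and a log2 fold change of 0.19 (95% confidence interval -0.21 to 0.60, limma p = 0.294, exact permutation p = 0.3). It was 0.077 without C3G replicate 1, 0.12 without control replicate 2 and 0.12 with replicates 2 and 3 only. The secreted *Sod3* had 9.31 to 12.2 FPKM in control and 9.60 to 13.7 FPKM in C3G libraries.

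The 9 genes with an ARE core in the promoter window had log2 fold changes from -0.21 (*Txnrd1*) to 0.48 (*Prdx1*) with a median of -0.05. The 24 genes with a window but no match ran from -1.08 (*Gpx1*) to 0.42 (*Nqo1*) with a median of 0.17. The medians were -0.063 and -0.010 with replicates 2 and 3 only. In both sets 0 genes were called. The split does not part targets of NRF2 from other genes, because *Nqo1* had no match and *Hmox1* had no window.

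A wider list of 99 pathway genes was examined in the same fit, of which 88 were present. They include small MAF proteins, *Bach1*, other transferases, methionine sulfoxide reductases, selenoproteins, NADPH enzymes, ferritin and heme enzymes. Of these, 0 were called higher and 2 were called lower with C3G (all genes, 0.401% higher and 0.249% lower). The median log2 fold change of the 88 genes was 0.05, against 0.06 over all genes, and with replicates 2 and 3 only it was -0.0026, against -0.011. After adjustment 0 of the 88 and 0 of all 11234 genes passed (limma), and the ordinary linear model called 0 of the 88 and 48 of all genes. The groups were fully separated in 5 of the 88 (*Selenoh*, *Selenow*, *Mafg* and *Cyb5r1* lower, *Akr1b10* higher), beside 4.02% of all genes.

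Both called genes encode small selenoproteins with a thioredoxin-like fold. *Selenoh* had 66.7, 27.9 and 27.0 FPKM in untreated and 22.3, 17.6 and 15.9 FPKM in treated cells. Every C3G library lay below every control library, with control replicate 1 far above the rest. The log2 fold change was -0.97 (95% confidence interval -1.83 to -0.11, exact permutation p = 0.1, limma p = 0.0325 and adjusted p = 0.992). It was -0.55 without control replicate 1 and -0.68 with replicates 2 and 3 only, and it was called in both and with the replicate block (without control replicate 1, 1.28% of all genes were called).

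*Selenow* had 161.9, 104.8 and 106.2 FPKM in the control and 97.4, 72.4 and 68.7 FPKM in the C3G libraries. The groups again did not overlap, and the ratios of the pairs were 0.602, 0.691 and 0.647. The log2 fold change was -0.63 (95% confidence interval -1.20 to -0.05, exact permutation p = 0.1, limma p = 0.0365 and adjusted p = 0.992). It was -0.42 without control replicate 1 and -0.57 with replicates 2 and 3 only, again called in both and with the block. Both genes lost the call without C3G replicate 2 (log2 fold change -0.94 for *Selenoh* and -0.57 for *Selenow*), without C3G replicate 3 (-0.87 and -0.53) and with the ordinary linear model, and *Selenow* also with median centring. With the replicate block *Ftl1*, the ferritin light chain, was called as well (log2 fold change -0.63), but its pseudogenes share 69.9% of its stretches of 75 bases.

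**Figure D4:**
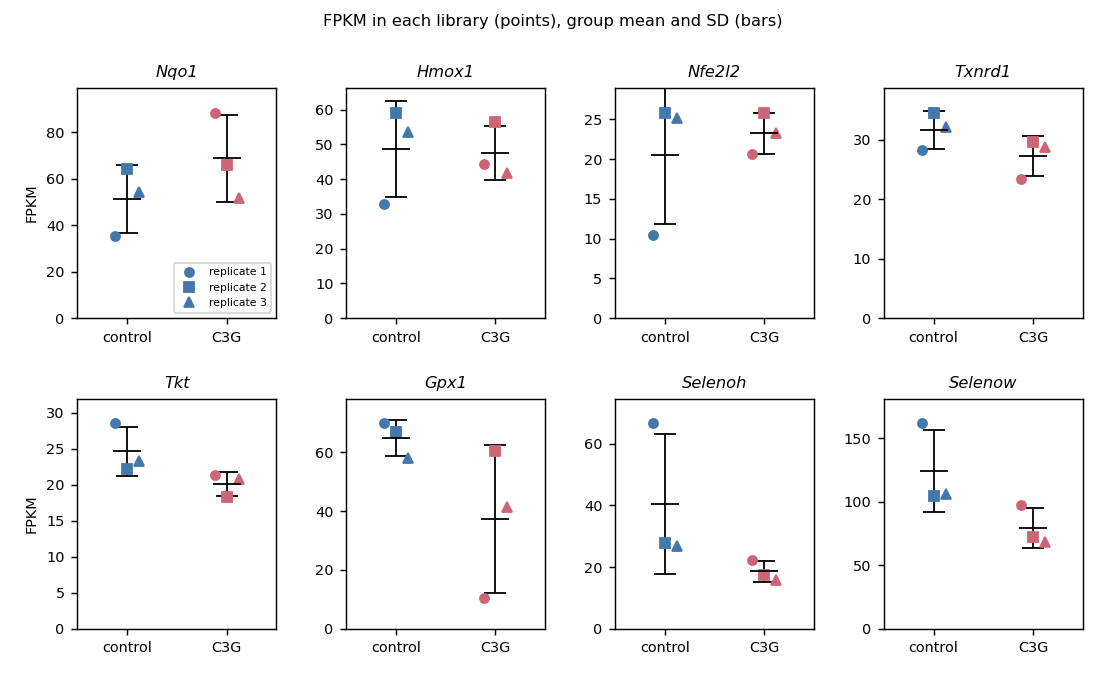
FPKM in each library (blue control, red C3G, circles, squares and triangles for replicates 1, 2 and 3) with the group mean and SD as bars, for 6 antioxidant genes and the 2 called selenoprotein genes. The groups overlap in *Nqo1*, *Hmox1*, *Nfe2l2*, *Txnrd1* and *Gpx1* and do not overlap in *Tkt*, *Selenoh* and *Selenow*.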

How the data were processed

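RNA-seq of 3 control and 3 C3G libraries of MC3T3-E1 cells was analysed, grouped by the sample labels. The authors deposited 1 FPKM value per gene and library, calculated with Ballgown after FastQC of the reads. The submitters' processing notes also name cutadapt, HISAT2 2.1.0, StringTie and STAR 2.5.2b without their roles, and the build hg19, which does not match the mouse identifiers in the files. The annotation release and the handling of strand and shared reads are not given in the sources used here. Depth is unknown. All genes in the files average 0.5 FPKM or more in 1 group or both, and weaker genes are absent. The label writes the C3G dose in μm/l and the paper in μmol/L.

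Symbols were matched for 11211 genes. Positions, exon overlaps, GC content and shared 75-base stretches are those of GENCODE M21 on GRCm38, whose version numbers 9812 identifiers carry. Values were transformed to log2(FPKM + 1), which understates the change of low genes. They were fitted over all genes with limma 3.58.1 (trend, group as the only term) in R 4.3.3. The fit was also run on simulated data with independent noise of the same spread in every gene. That simulation held neither the GC departure nor the likeness of same-numbered libraries, so it does not test them. A gene was called at p under 0.05 (two-sided, before adjustment) with a change of 1.2-fold or more, the limits the paper states. For single genes an exact permutation test (two-sided) was added, which cannot go below 0.1 with 3 against 3. The labels do not say that replicates were separate cultures, so p-values measure the spread between these libraries. Same-numbered libraries deviated alike from their group means (correlation across genes 0.653, 0.580 and 0.440 for numbers 1, 2 and 3, against at most 0.307 for different numbers), so the number was taken as a pairing and used as a block in an alternative. Fits were repeated unmoderated, after quantile normalization or median centring, at a pseudocount of 0.1, for genes averaging 1 FPKM or more, after a GC correction (spline, 5 degrees of freedom) unblocked or blocked, on replicates 2 and 3 alone, and on 5 libraries at a time. Python 3.11.15 with pandas 2.3.3 and scipy 1.17.1 made the summaries.

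The genes, the wider list and the tests were chosen with earlier results of these data known. Values per library are given for the 2 markers, 14 further genes fixed by name, genes called in either list, antioxidant genes without overlap, the 5 with the smallest p and the 3 with the highest level, and *Txn2* was added after its values were seen.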

Additional observations from a re-analysis of the deposited data

How the results depend on the processing

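The number of antioxidant genes called was 0 with all libraries and stayed 0 with 6 of the 9 alternatives that left out no single library. It was 1 with the GC correction, alone or with the replicate block (*Tkt*), and 1 with replicates 2 and 3 only (*Txn2*), and it ranged from 0 to 1 with each library left out (*Gpx1* without C3G replicate 2). Of the wider list, 2 genes were called, but 0 with the ordinary linear model, 1 with median centring and 0 to 3 with each library left out. Over all genes 73 were called, against 48 with the ordinary linear model, 169 with the replicate block, 135 with the GC correction, 246 with the GC correction and block, 191 with replicates 2 and 3 only and 40 to 144 with each library left out. Of the 73 calls 45 were higher, against 30 of 60 after quantile normalization and 67 of 135 after the GC correction. Leaving out control replicate 1 gave 144 calls and control replicate 2 gave 127, and without C3G replicate 1, 2 or 3 there were 45, 40 and 43. The replicate block changed the call of no gene described by name except *Ftl1*.

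With replicates 2 and 3 only, the log2 fold change had the other sign in 15 of the 40 genes. Among those given by library these were *Nqo1* (-0.013), *Nfe2l2* (-0.054), *Keap1* (0.039), *Gclc* (-0.10), *Txn1* (-0.15), *Txn2* (-0.30), *Prdx1* (-0.22) and *Sod2* (-0.055). *Gclc* was also -0.039 with quantile normalization, -0.054 with median centring and -0.087 after GC correction, blocked or not. With single libraries left out, values of both signs were seen in 23 of the 40 genes, among them *Hmox1* (-0.25 to 0.16), *Nfe2l2* (-0.13 to 0.48), *Gclc* (-0.35 to 0.27), *Gclm* (-0.23 to 0.0056), *Srxn1* (-0.32 to 0.10), *Txn1* (-0.12 to 0.33), *Prdx1* (-0.14 to 0.90), *Sod1* (-0.21 to 0.13) and *Gstp1* (-0.13 to 0.23). The causes were not tested. Without read counts, the precision of a single library cannot be given.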

Other observations

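*Gpx1*, *Txnrd1*, *Selenoh* and *Selenow* all encode selenoproteins, in which a UGA codon is read as selenocysteine. The other genes of this class were looked up after those values had been seen, so no test is given over them. Beside the 4 genes that prompted the list, 16 selenoprotein genes were present, among them *Sephs2*, which makes the selenium donor. Of these 16, 8 had a log2 fold change below 0 and 8 above, with a median of 0.035, against 0.06 over all genes, and 0 were called. With replicates 2 and 3 only, 6 were above 0 and 10 below, with a median of -0.045. Their summed level was 442, 449.5 and 443 FPKM in untreated and 490.03, 449.4 and 409.5 FPKM in treated cells (replicates 1, 2 and 3 in turn), so the groups overlapped.

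The 16 log2 fold changes ran from -0.45 (*Selenom*, lower in 3 of 3 pairs) to 0.33 (*Selenot*). *Selenom* had 113.6, 43.0 and 44.6 FPKM in the control libraries. Its value was -0.0015 without control replicate 1 and -0.19 with replicates 2 and 3 only. *Selenot* had 18.3 FPKM in control replicate 1 and 42.1 to 73.6 FPKM in the other 5 libraries.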
